A study of Mus musculus with 5 samples.

Results

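DEAD and DEAH box RNA helicases are enzymes of one superfamily that bind RNA and use ATP to unwind short duplexes or to strip proteins from RNA. They are named after a conserved amino acid motif, written D-E-A-D or D-E-A-H, and act in nearly every step of the life of an RNA, from transcription and splicing to export, translation and decay. The helicase genes were taken by symbol, as every gene whose name begins with Ddx or Dhx followed by a digit, and the sensor genes Ddx58 and Dhx58 were left out. The deposited table lists 27678 genes, of which 52 met this rule, 36 with the Ddx name and 16 with the Dhx name. One of the 52 is no helicase gene but an antisense transcript, Dhx58os, which had 0 reads in all 5 libraries. The other 51 all passed the filter on low values and were tested.

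Expression was measured by RNA-seq in dendritic cells, the antigen-presenting cells of the immune system, sorted from mouse bone marrow cultures of 2 genotypes. The groups were Etv3+/+ (2 libraries) and Etv3-/- (3 libraries), and the product of Etv3 is an ETS family transcription factor. Cultures of both genotypes received GM-CSF (20 ng/ml) together with IL-4 (5 ng/ml) and were kept for 6 days. The sort took CD11c+ cells with intermediate CD11b, abundant MHC class II and no CD115, and its stated purity exceeded 95%. The labels do not give the age or strain of the mice, the part of Etv3 that was disrupted, or whether replicates came from separate animals. The p-values therefore measure the spread between these libraries, which may be technical.

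Depth was 42983550 to 68253936 recovered reads per library. Etv3 itself had 23050 and 25447 normalized counts in Etv3+/+ and 18691, 20416 and 22856 in Etv3-/-. The groups did not overlap, by a small margin, and the log2 fold change was -0.23 (limma adjusted p = 0.567). Reads from outside a disrupted part would still count, so the gene total did not check the genotype labels, which are used as given. The dendritic cell markers Itgax and Zbtb46 lay between 9808 and 16076 and between 9852 and 12295 normalized counts. Csf1r, which encodes the CD115 used to exclude cells, had 1018 and 1348 in Etv3+/+ and 3493, 2403 and 2889 in Etv3-/-, which did not overlap (log2 fold change 1.30, limma adjusted p = 0.0683). Of 10 macrophage and monocyte markers 3 were called higher in Etv3-/- (C1qa, C1qb and C1qc), with a summed level of 31246 to 31261 in Etv3+/+ and 53475 to 69811 in Etv3-/-. No marker was called on the lists for dendritic cells, neutrophils, B cells, T and NK cells, mast cells and basophils, or erythroid cells. Over all genes tested, 0.876% were called higher and 0.319% lower in Etv3-/-. The summed level of the dendritic cell list was 1229117 to 1630161 in Etv3+/+ and 2409261 to 3215804 in Etv3-/-. Its class II genes H2-Ab1, H2-Aa and H2-Eb1 had log2 fold changes of 1.56, 1.24 and 1.58, and Cd74 of 0.71. The groups of Itgax, Flt3, Cd86, Ccr7 and Batf3 overlapped, with log2 fold changes of 0.39, 0.025, -0.19, -0.072 and -0.19. For the B cell list the summed level was 1651 to 2177 in Etv3+/+ and 3328 to 5197 in Etv3-/-. Of its 6 genes 5 had log2 fold changes above 0, and Ms4a1 was at -1.01. The T and NK cell list went the other way, with 4566 to 5045 in Etv3+/+ and 2661 to 4031 in Etv3-/-. Of its 7 tested genes 1 had a log2 fold change above 0 (Cd3e, 0.034). Ncr1, a marker of NK cells, was at 0 in all libraries. Nkg7 and Klrb1c of the same list were read in every library, with log2 fold changes of -1.14 and -1.69. The part of these cell type differences in the helicase values was not tested. In bulk samples fewer cells of a type and less RNA per cell cannot be told apart.

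Among the helicases, Ddx20 has a reported link to ETV3. Its protein, also called Gemin3, is a subunit of the SMN complex, which assembles spliceosomal ribonucleoproteins, and it has been described as a corepressor partner of ETV3. ETS factors bind DNA at sites with a GGAA core. The 250 bases before the annotated start were read from RefSeq promoters (GRCm38.p6) and searched for CCGGAAG, an ETS-type site, on both strands, where it reads CTTCCGG on the other strand. Promoters were found for 46 of the 51 tested genes, all but Ddx6, Ddx11, Ddx23, Ddx39 and Dhx38. The sequences shown are those of Ddx20, of Dhx34, a gene among those with the clearest separation of the genotypes, and of Dhx36, which holds the site on each strand. Capitals mark the site. The Dhx34 sequence is shown for 221 bases and ends at the site, without the bases between the site and the start.

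Ddx20, chr3:105687572-105687821, minus strand: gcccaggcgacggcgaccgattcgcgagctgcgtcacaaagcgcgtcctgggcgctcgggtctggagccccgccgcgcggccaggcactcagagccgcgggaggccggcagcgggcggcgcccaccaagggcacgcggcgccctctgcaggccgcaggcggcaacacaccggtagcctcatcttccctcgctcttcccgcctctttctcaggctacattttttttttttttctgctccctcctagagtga
Dhx34, chr7:16222023-16222243, minus strand: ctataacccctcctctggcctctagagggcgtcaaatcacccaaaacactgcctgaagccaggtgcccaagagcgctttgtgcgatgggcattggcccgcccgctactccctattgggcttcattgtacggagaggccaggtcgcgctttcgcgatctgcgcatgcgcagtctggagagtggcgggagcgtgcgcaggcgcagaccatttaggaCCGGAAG
Dhx36, chr3:62506989-62507238, minus strand: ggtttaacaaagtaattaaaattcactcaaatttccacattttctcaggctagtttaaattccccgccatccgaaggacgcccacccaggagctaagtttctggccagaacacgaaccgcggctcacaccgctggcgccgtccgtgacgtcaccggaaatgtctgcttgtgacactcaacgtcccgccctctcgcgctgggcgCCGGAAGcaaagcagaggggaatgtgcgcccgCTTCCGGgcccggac

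The Ddx20 window did not hold these letters, though it holds ttcc, the GGAA core read on the other strand. The core alone was not searched for. Ddx28 and Ddx24, higher in every Etv3-/- library like Dhx34, did not hold the site, and Ddx11 had no promoter to search. The site began 36 bases before the downstream of 2 annotated starts of Dhx34, and 47 and 15 bases before the start of Dhx36. The Dhx34 gene reaches to 16222037 on the minus strand, so its site lay inside the annotated gene. The site was present for 16 of 46 helicase genes (34.8%), against 1636 of 10631 tested genes with a promoter (15.4%). A gene was counted where any of its promoter windows held the site. Of all 32851 single promoter windows 6.91% held it, a share per window that is not comparable with the shares per gene. The median log2 fold change was 0.18 for helicase genes with the site and -0.079 for those without it, against -0.032 and -0.065 over all tested genes with a promoter. Helicase genes with the site ran from -0.89 (Dhx36, transcript GC content 37.8%) to 0.97 (Dhx34, 60.5%). The part of GC content in these medians was not tested. A match describes the letters in this window and no binding was measured.

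The helicases were expressed at widely different levels, and Ddx5 stood apart from the rest. Counts were divided by the exon length of each gene so that genes could be compared. Ddx5, an abundant coregulator of transcription and splicing, had a mean of 8712 ± 2712 (SD, n = 5) normalized counts per kb and made up 24.7% of all helicase counts. The next genes were Ddx52 (1914 ± 576), which acts in ribosome biogenesis, and Ddx3x (1903 ± 1189), an RNA helicase of translation initiation. Ddx5 was 4.55 times the level of Ddx52 and its range over the 5 libraries did not overlap that of Ddx52. Each of the other 49 neighbouring pairs in the order overlapped, so their order was not resolved by these libraries. The median gene was at 511 normalized counts per kb. At the lower end were the germ cell helicases Ddx4 (38.4), Ddx43 (36.3) and Ddx25 (2.22), together with Ddx23 (24.4), a helicase of the U5 splicing particle. Between the lowest and the highest library, 24 of the genes varied over 2-fold and 10 over 3-fold.

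**Figure D1:**
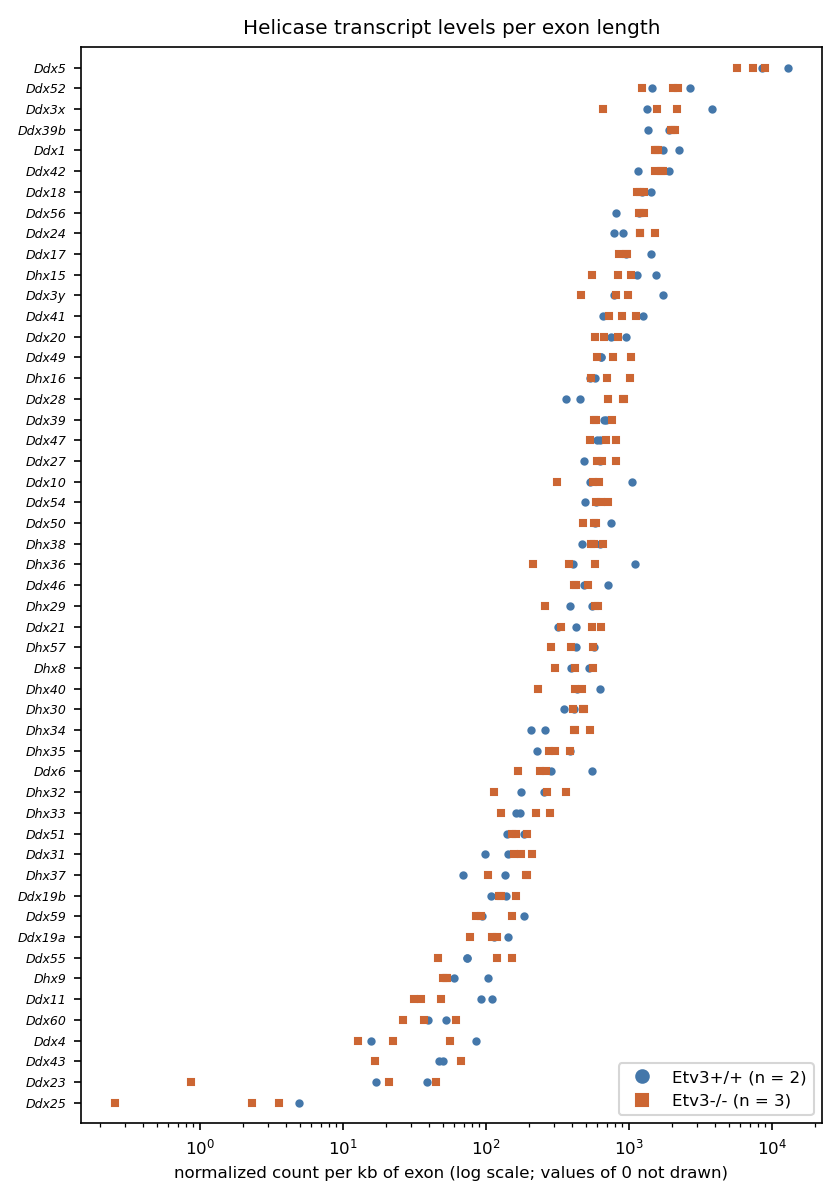
Normalized counts per kb of exon for the 51 tested helicase genes in each library, on a log axis, with genes ordered by their mean (circles, Etv3+/+; squares, Etv3-/-; values of 0 not drawn). Ddx5 lies above all others with a mean of 8712, and most neighbouring genes overlap.

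No helicase gene was called different between the genotypes. Of 51 genes, 0 were higher and 0 lower in Etv3-/- at an adjusted p under 0.05 (limma), where 0.876% and 0.319% of all 13813 genes tested were called in these directions, together 1.19%. At an unadjusted p under 0.05, 3 helicases were higher and 3 lower, together 11.8%, against 8.02%, 9.93% and together 18.0% of all genes. Libraries of the genotypes were fully separate for 6 helicases with higher and 5 with lower values, together 21.6%, against 16.7%, 19.3% and together 36.0% of all genes. Each share was below that of all genes. The median log2 fold change was -0.10, with 23 values above and 28 below 0, beside a median of -0.060 over all genes tested.

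A count test on the recovered reads gave the same number in edgeR and not in DESeq2. edgeR called 0 of 51 helicases, and 0.825% higher and 0.319% lower of all genes. DESeq2 called Ddx28, Dhx34 and Ddx24 higher and Ddx11 lower, which is 5.88% and 1.96% of the helicases, where it called 4.66% and 3.94% of all genes in these directions. With any 1 library left out limma called 0 helicases, but only 0 to 80 of all genes, so this count says nothing particular to the helicases.

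**Figure D2:**
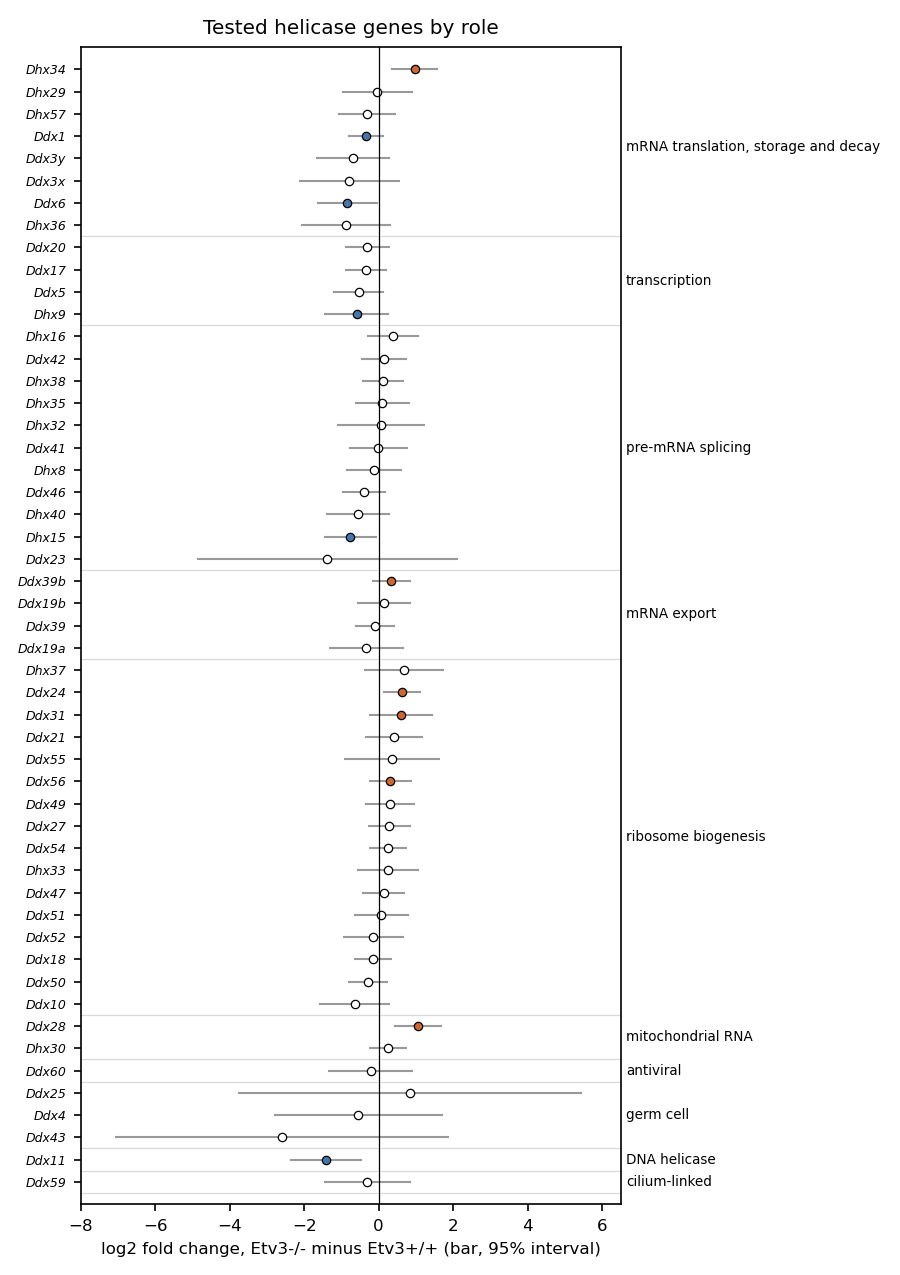
Log2 fold change of each tested helicase gene, Etv3-/- minus Etv3+/+, with its 95% interval from limma, grouped by role (orange, all Etv3-/- libraries above all Etv3+/+; blue, all below; white, overlapping). The 6 orange and 5 blue genes are spread over several roles, and Ddx43, Ddx23 and Ddx25 have the widest intervals.

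Ddx20 is located on chromosome 3 (105678270 to 105687574, GRCm38). It had 3112 and 3963 normalized counts in Etv3+/+ and 2746, 3495 and 2395 in Etv3-/-. The Etv3-/- replicate 2 value lay between those of the Etv3+/+ libraries, so the groups overlapped. The group means were 3537 ± 602 (SD, n = 2) and 2879 ± 562 (SD, n = 3), with a log2 fold change of -0.30 (95% interval -0.88 to 0.27, adjusted p = 0.553 by limma). The exact permutation test (two-sided, 10 arrangements) gave p = 0.3 for Ddx20, and 0.1 is the smallest p it can give. Its log2 fold change was -0.48 to -0.0066 over 21 settings, and it was called in none.

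Partners of DDX20 gave no call either, where 1.19% of all genes tested were called. In lists this short, here and below, 0 calls are close to that share and are no result about the partners. Of 8 other SMN complex genes 0 were called, with a median log2 fold change of -0.15 and 5 genes whose groups did not overlap, where 36.0% of all genes had such groups. Strap, an adaptor of the complex, had a mean of 7518 normalized counts and a log2 fold change of -0.035, and Gemin7 a mean of 4920 and a log2 fold change of 0.32 (limma adjusted p = 0.430). Of 8 corepressor genes that can act with ETV3 or DDX20, 0 were called, with a median of -0.12. Ncor1, the nuclear receptor corepressor, had a mean of 9214 and a log2 fold change of -0.24, and Hdac2, a histone deacetylase, a mean of 6282 and a log2 fold change of -0.47 (limma adjusted p = 0.395).

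The other helicases of transcription, Ddx5, Ddx17 and Dhx9, did not pass the test, and the groups of Ddx5 and Ddx17 overlapped. Ddx5 had 49151 and 75052 normalized counts in Etv3+/+ and 42545, 51962 and 32861 in Etv3-/-, with a log2 fold change of -0.54 (95% interval -1.21 to 0.13, limma adjusted p = 0.374). Its paralog Ddx17 had a log2 fold change of -0.34. Dhx9, also called RNA helicase A, had 574 and 994 normalized counts in Etv3+/+ and 478, 516 and 508 in Etv3-/-. The groups of Dhx9 did not overlap, but its Etv3+/+ libraries differed from each other by more than the nearer one differed from Etv3-/- (limma adjusted p = 0.433).

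The gene with the highest log2 fold change was Ddx28, a helicase that helps to assemble the large subunit of the mitochondrial ribosome (chromosome 8, 106009621 to 106011882). It had 815 and 1029 normalized counts in Etv3+/+ and 2051, 1606 and 2075 in Etv3-/-. All Etv3-/- libraries were above both Etv3+/+ libraries. The ratio of means was 2.07 and the log2 fold change 1.05 (95% interval 0.43 to 1.67, limma adjusted p = 0.115). It was called by DESeq2 alone (adjusted p = 0.0073), and its log2 fold change was 0.73 to 1.22 over 21 settings. Its exons overlap 72 bases of Dus2 on the opposite strand, so reads there cannot be told apart if strand was not used in counting. The other mitochondrial member, Dhx30, had a log2 fold change of 0.26 (limma adjusted p = 0.546), with 4367 and 3747 normalized counts in Etv3+/+ against 4337, 5047 and 5146.

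Dhx34, which acts in nonsense-mediated decay of mRNA (chromosome 7, 16197147 to 16222037), was next. It had 1191 and 951 normalized counts in Etv3+/+ and 1904, 1938 and 2452 in Etv3-/-. The genotypes were again separate, with a ratio of means of 1.96 and a log2 fold change of 0.97 (95% interval 0.37 to 1.57, limma adjusted p = 0.122). DESeq2 called it (adjusted p = 0.0090), and its log2 fold change was 0.69 to 1.13 over 21 settings. Ddx24, a nucleolar helicase of ribosome biogenesis (chromosome 12, 103407982 to 103425830), had 7512 and 6472 normalized counts in Etv3+/+ and 9865, 9829 and 12571 in Etv3-/-. Its log2 fold change was smaller, 0.62 (95% interval 0.13 to 1.10, limma adjusted p = 0.195), and its DESeq2 adjusted p was 0.0478.

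The clearest lower value was that of Ddx11, which carries the Ddx name but encodes a DNA helicase of sister chromatid cohesion and genome maintenance (chromosome 17, 66123520 to 66152174). It had 607 and 734 normalized counts in Etv3+/+ and 233, 208 and 319 in Etv3-/-. The groups were well apart, with Etv3+/+ at 2.64 times the mean of Etv3-/-. This is a log2 fold change of -1.42 (95% interval -2.36 to -0.48, limma adjusted p = 0.141; DESeq2 adjusted p = 0.0265), and it was -1.68 to -1.28 over 21 settings. For Ddx28, Dhx34, Ddx24 and Ddx11 the exact permutation test gave p = 0.1, the smallest that 2 against 3 libraries allow. Ddx31, Ddx6 and Ddx39b gave the same value, so this p does not set those genes apart.

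**Figure D3:**
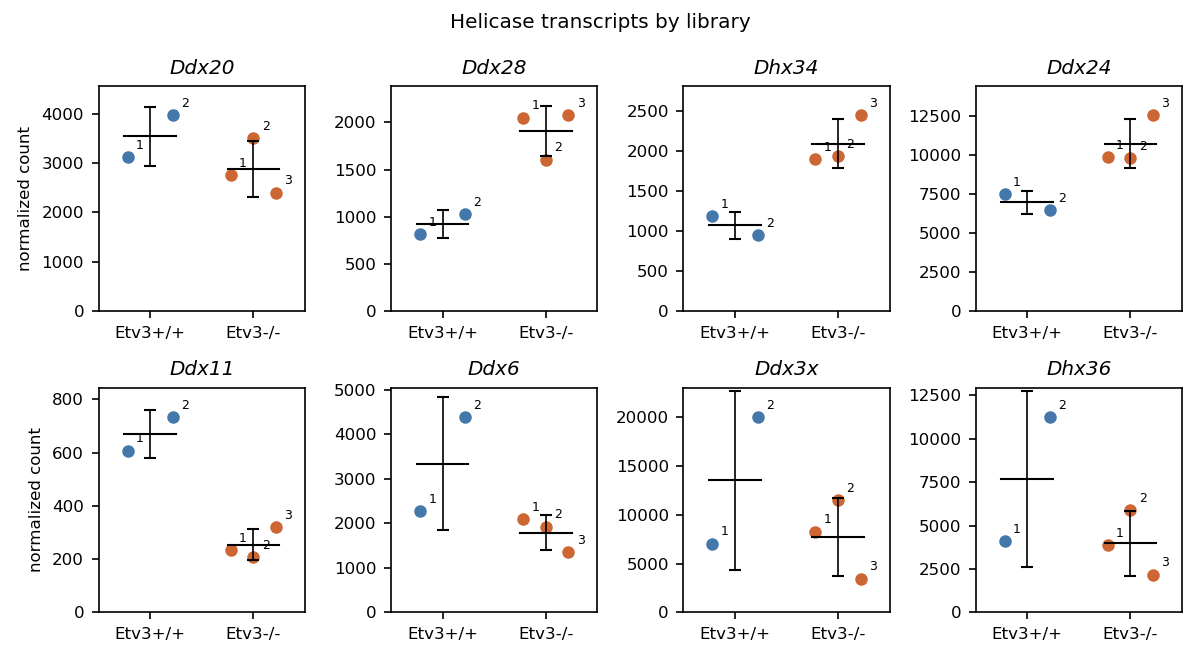
Normalized counts of 8 helicase genes in each library (points, with the replicate number; line and bar, mean ± SD of 2 Etv3+/+ and 3 Etv3-/- libraries). Ddx28, Dhx34 and Ddx24 are higher in every Etv3-/- library and Ddx11 lower, while in Ddx3x and Dhx36 the highest value is that of Etv3+/+ replicate 2 and the lowest that of Etv3-/- replicate 3.

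Among 8 helicases of mRNA translation, storage and decay, 7 had log2 fold changes below 0, with a median of -0.52. In 5 of the 8, Etv3+/+ replicate 2 was the highest library and Etv3-/- replicate 3 the lowest. Dhx36, which unwinds G-quadruplexes in mRNA, had 4120 and 11267 normalized counts in Etv3+/+ and 3877, 5901 and 2178 in Etv3-/-. Ddx3x had 7024 and 20023 in Etv3+/+ and 8255, 11470 and 3444 in Etv3-/-. For both, Etv3+/+ replicate 2 was the highest library, Etv3-/- replicate 3 the lowest, and the groups overlapped. Of the other 3 libraries, Etv3+/+ replicate 1 lay between the Etv3-/- libraries for Dhx36 and below both for Ddx3x. The log2 fold changes were -0.89 for Dhx36 (limma adjusted p = 0.406) and -0.78 for Ddx3x (limma adjusted p = 0.504).

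Ddx6, which holds mRNA in processing bodies and helps to start decapping (chromosome 9, 44604892 to 44640731), had 2280 and 4393 normalized counts in Etv3+/+ and 2102, 1923 and 1350 in Etv3-/-. The groups did not overlap, but Etv3+/+ replicate 1 and Etv3-/- replicate 1 were close. This gave a log2 fold change of -0.85 (95% interval -1.64 to -0.051, limma adjusted p = 0.254). Ddx1, which takes part in tRNA ligation and RNA transport, was also separate by genotype, at 8716 and 11352 in Etv3+/+ and 8086, 7798 and 7736 in Etv3-/- (log2 fold change -0.34, limma adjusted p = 0.422). The decapping and processing body partners of DDX6 gave 0 calls among 11 genes, with a median of 0.0060. The most abundant of them were Cnot1, the deadenylase scaffold, with a mean of 7704 normalized counts and a log2 fold change of -0.027, and Edc4, a decapping scaffold, with 7479 and 0.019.

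Ddx3y, the Y-linked copy of Ddx3x, was read in every library, at 4051 and 8996 normalized counts in Etv3+/+ and 4199, 5100 and 2398 in Etv3-/-. Its order of libraries had the same ends as that of Ddx3x, and its log2 fold change was -0.70 (limma adjusted p = 0.424). Per kb of exon, Ddx3x was 1.41 to 2.22 times the level of Ddx3y in each library. The Y-linked genes Uty, Kdm5d and Eif2s3y were also read in all 5 libraries, and Xist, the RNA of the inactive X chromosome, had 0 reads in each, where 0 reads allow up to 2.57 to 3.72 normalized counts (3 reads, counting error alone). Xist was thus undetected and the Y-linked genes were detected in both genotypes.

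Of 11 helicases assigned to splicing, Dhx32 and Dhx40 among them, 5 had log2 fold changes above 0 and 6 below, with a median of -0.010. Dhx15, which takes spent spliceosomes apart (chromosome 5, 52150203 to 52190514), had 9711 and 13012 normalized counts in Etv3+/+ and 7083, 8767 and 4682 in Etv3-/-. Its groups did not overlap, and it had a log2 fold change of -0.76 (95% interval -1.45 to -0.076, limma adjusted p = 0.238). Dhx16, which acts before the first splicing step, had 2363 and 2190 in Etv3+/+ and 2202, 2871 and 4135 in Etv3-/-, with a log2 fold change of 0.38 (limma adjusted p = 0.528). Ddx23 had 240 and 105 in Etv3+/+ and 5.38, 131 and 277 in Etv3-/-. A single library, Etv3-/- replicate 1 with 5 reads, set its log2 fold change of -1.38, which was 0.26 without that library.

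Partners of these enzymes gave no call, where 1.19% of all genes tested were called. Of 18 core spliceosome genes 0 were called, with a median of 0.026 and 9 values above 0. Sf3b1, a subunit of the U2 particle, had a mean of 30814 normalized counts and a log2 fold change of -0.64 (limma adjusted p = 0.310), and Sf3b2 a mean of 15034 and a log2 fold change of -0.015. Of 13 G-patch genes, whose proteins activate DEAH helicases, 0 were called, with a median of -0.079. Rbm17 had a mean of 9439 normalized counts and a log2 fold change of -0.11, and Gpkow 4815 and -0.079.

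Of the 16 helicases of ribosome biogenesis, 12 had log2 fold changes above 0 and 4 below, with a median of 0.27. Groups did not overlap, all with higher values, for 3 of them (Ddx24, Ddx31 and Ddx56), a share near the 16.7% of all genes. Ddx31 had 349 and 500 normalized counts in Etv3+/+ and 555, 741 and 624 in Etv3-/- (log2 fold change 0.60, limma adjusted p = 0.422). Ddx56 had 2954 and 2069 in Etv3+/+ and 3021, 2982 and 3243 in Etv3-/- (log2 fold change 0.32, limma adjusted p = 0.515). Dhx37, which acts in the small subunit processome, had 348 and 682 in Etv3+/+ and 516, 975 and 953 in Etv3-/-, and its groups overlapped (log2 fold change 0.68, limma adjusted p = 0.458).

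Within the nucleolar pair Ddx21 and Ddx50, 2 close paralogs, the values did not run together. Ddx21 had 1658 and 2192 normalized counts in Etv3+/+ and 3272, 2869 and 1735 in Etv3-/-. Per kb, Ddx21 was 0.55 and 0.56 times the level of Ddx50 in Etv3+/+, and 1.33, 0.94 and 0.59 times in Etv3-/-. The ratio was thus above both Etv3+/+ values in each Etv3-/- library, in replicate 3 by a small margin. That of Ddx39b to Ddx39 also separated, at 2.73 and 2.06 in Etv3+/+ and 3.56, 3.33 and 2.78 in Etv3-/-, the last by a small margin. The ratios of Ddx3x to Ddx3y, Ddx19b to Ddx19a and Ddx5 to Ddx17 overlapped. The share of separate ratios among other gene pairs was not measured, and single genes had separate groups in 36.0% of all genes tested. Ddx21 and Ddx50 differ in GC content (47.0% and 41.0%), and the part of this in their ratio was not tested. The log2 fold changes were 0.41 for Ddx21 (limma adjusted p = 0.535) and -0.29 for Ddx50 (limma adjusted p = 0.515).

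Of 21 other ribosome biogenesis factors 0 were called, with a median of 0.28 and 16 values above 0, where the median of all genes was -0.060 and 46.3% were above 0. Groups did not overlap for 8 of the 21, a share near the 36.0% of all genes. The most abundant were Npm1, the nucleolar protein nucleophosmin, with a mean of 62610 normalized counts and a log2 fold change of -0.27, and Ncl, nucleolin, with 17499 and -0.19. Nolc1, singled out after its values were seen, came nearest to the threshold, with 1036 and 1302 in Etv3+/+ and 2463, 2256 and 2609 in Etv3-/- (log2 fold change 1.07, limma adjusted p = 0.0824).

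In mRNA export, Ddx39b, the ATPase that loads export factors onto mRNA, had 7188 and 5169 normalized counts in Etv3+/+ and 7704, 7408 and 7962 in Etv3-/-. Its groups did not overlap, with a log2 fold change of 0.33 (95% interval -0.16 to 0.83, limma adjusted p = 0.447). Its paralog Ddx39 had a log2 fold change of -0.10, and exons covering 17.4% of its length overlap Adgre5 on the opposite strand. Of 13 genes of the TREX complex and mRNA export 0 were called, with a median of -0.12. Nxf1, the main export receptor, had a mean of 19687 normalized counts and a log2 fold change of 0.0056, and Poldip3 a mean of 13381 and a log2 fold change of -0.13.

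Of 3 tested DEAD box genes with other names 0 were called, with a median log2 fold change of 0.069. Eif4a2, a translation initiation helicase, had a mean of 29737 normalized counts and a log2 fold change of -0.21. Eif4a3, the helicase of the exon junction complex, had 7349 and 7009 in Etv3+/+ and 10431, 9595 and 11131 in Etv3-/-, which did not overlap (log2 fold change 0.53, limma adjusted p = 0.206). Of 9 partners of eIF4A and 9 genes of the exon junction complex and nonsense-mediated decay 0 were called. The medians were 0.093 and -0.25. Eif4g2, a translation scaffold, had a mean of 57435 and a log2 fold change of -0.85 (limma adjusted p = 0.207), and Eif4h, a cofactor of eIF4A, 25677 and 0.25. Casc3 and Rbm8a, core subunits of the exon junction complex, had means of 5567 and 4935 and log2 fold changes of -0.45 and -0.21.

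The least expressed members, Ddx25, Ddx23, Ddx43 and Ddx4, were also the least certain, with the widest 95% intervals. Ddx43 had 103 and 111 normalized counts in Etv3+/+ and 0, 149 and 36.8 in Etv3-/-. Its log2 fold change of -2.60 (95% interval -7.06 to 1.86) had the widest spread of the lower values and rested on the library at 0. Ddx25 had 0 and 34.2 in Etv3+/+ and 24.7, 16.1 and 1.75 in Etv3-/-, with a log2 fold change of 0.85 on the log2(value + 1) scale although its mean was lower in Etv3-/- (14.2 against 17.1). Ddx4, the germ cell helicase known as Vasa, had 47.5 and 258 in Etv3+/+ and 168, 66.9 and 38.6 in Etv3-/-. Ddx60, an interferon-induced gene, had 339 and 457 in Etv3+/+ and 321, 535 and 227 in Etv3-/- (limma adjusted p = 0.855), and Ddx59, a gene linked to cilia, had 541 and 277 against 447, 253 and 272 (limma adjusted p = 0.789).

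Differences between libraries followed the GC content of the helicase transcripts. Across the 51 genes the Spearman correlation of a library's deviation from the gene mean with GC content came to -0.75 for Etv3+/+ replicate 2, to 0.76 for Etv3-/- replicate 3, and between -0.04 and 0.09 in Etv3+/+ replicate 1 and Etv3-/- replicates 1 and 2. Over all tested genes the values were -0.41 and 0.40 in those 2 libraries. These correlations are across genes, which share the libraries and are not independent, and they describe the libraries.

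**Figure D4:**
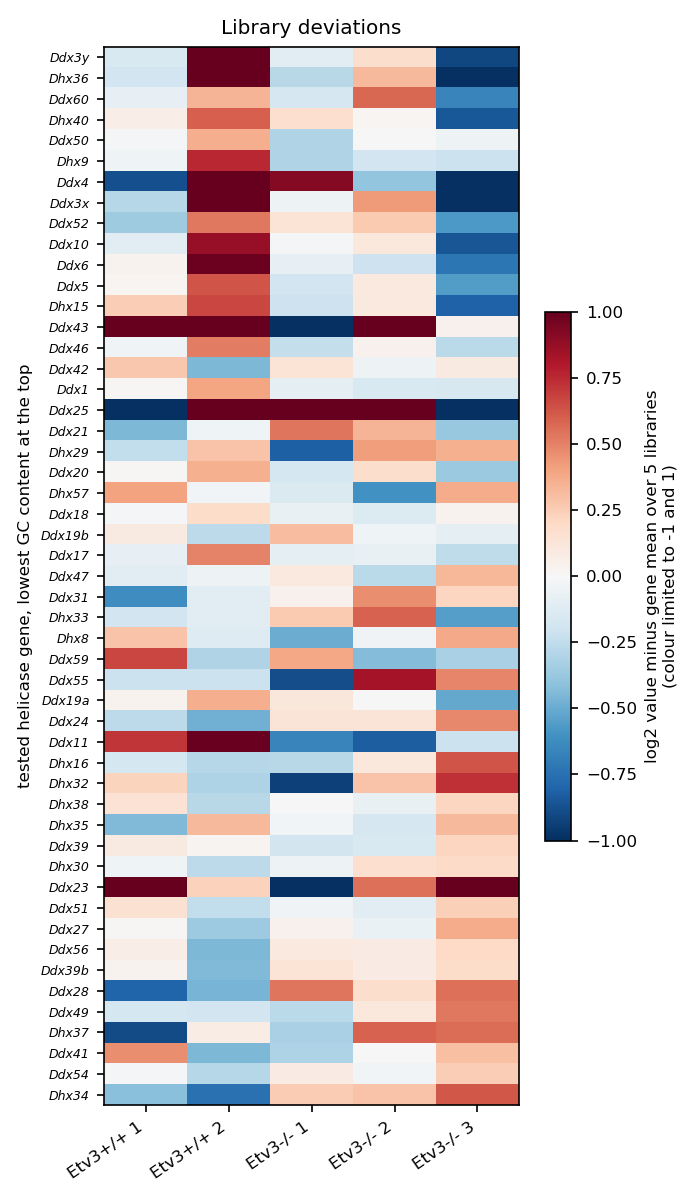
Deviation of each library from the gene's mean over 5 libraries, in log2 units, for the 51 tested helicase genes, with the lowest GC content at the top (red, above the mean; blue, below; colour limited to -1 and 1). In the upper rows Etv3+/+ replicate 2 is mostly red and Etv3-/- replicate 3 mostly blue, and in the lower rows the colours are mostly reversed.

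The 17 helicases of lowest GC content (35.7% to 45.2%), among them Ddx3x, Ddx3y, Dhx36, Ddx5, Ddx6 and Dhx15, were highest in Etv3+/+ replicate 2 in 14 cases and lowest in Etv3-/- replicate 3 in 13. The 17 of highest GC content (51.8% to 60.5%), among them Dhx34, Ddx28 and Ddx39b, were highest in Etv3-/- replicate 3 in 14 cases and lowest in Etv3+/+ replicate 2 in 10. Between genotypes, 16 of the 17 low-GC genes had log2 fold changes below 0 (median -0.55), and 14 of the 17 high-GC genes above 0 (median 0.26). All tested genes at or below 45.2% and at or above 51.8% GC had medians of -0.51 (2798 genes, 21.4% above 0) and 0.12 (5929 genes, 59.3% above 0). The helicases thus lay on the side that other genes of like GC content took.

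By role, the median GC content was 44.2% for translation and decay (median log2 fold change -0.52), 45.3% for transcription (-0.44), 50.3% for ribosome biogenesis (0.27), 51.8% for splicing (-0.010) and 52.2% for export (0.021). It was 44.1% for the 3 germ cell genes (-0.54) and 54.6% for the 2 genes of mitochondrial RNA (0.65). Across the 51 genes the Spearman correlation of log2 fold change with GC content was 0.62, against 0.28 over 13609 tested genes. The part of GC content in the medians by role was not tested. With a correction for GC content and length, chosen after seeing the data, the log2 fold change of Dhx36 was -0.011, of Ddx6 -0.42, of Ddx3y 0.26 and of Dhx15 -0.34. Under the same correction Ddx28 was at 0.73, Dhx34 at 0.91 and Ddx11 at -1.55, and 0 helicases were called. Mitochondrial transcripts took 6.64% of counts in Etv3+/+ replicate 2 and 1.10% in Etv3-/- replicate 3, against 1.98% to 3.17% in the other 3 libraries. The part of RNA quality in these differences was not tested.

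**Figure D5:**
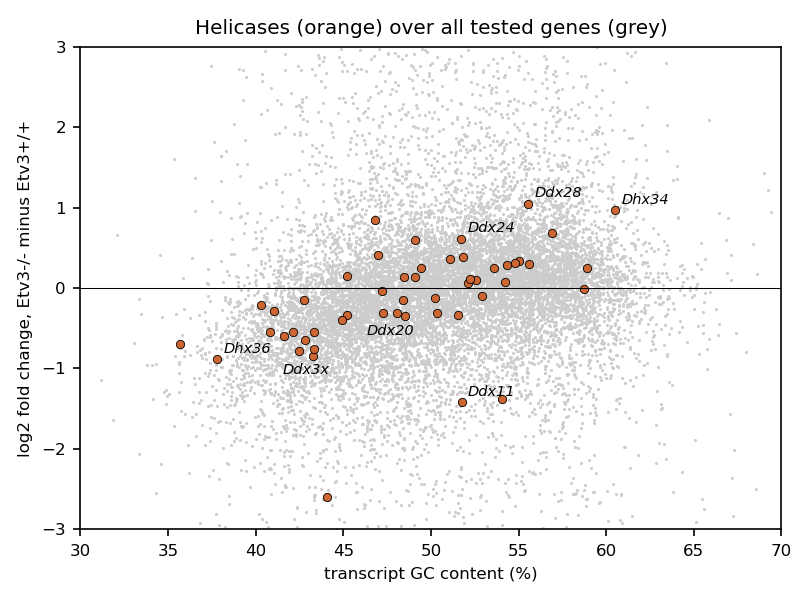
Log2 fold change, Etv3-/- minus Etv3+/+, against the GC content of the transcript for all tested genes (grey) and the 51 helicase genes (orange), with 627 grey points beyond the axes. The helicases run from below 0 at low GC content, where Ddx3x and Dhx36 lie, to above 0 at high GC content, where Ddx28 and Dhx34 lie, and Ddx43, Ddx11 and Ddx23 have the lowest values.

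Reads of some members are uncertain. Exons of 11 tested helicases overlap a gene on the opposite strand, most of all Ddx49, with 29.8% of its exon length shared with Homer3. Of the 50-base stretches of Ddx18, 51.4% also occur in the pseudogene Gm16433, and 28.1% of those of Ddx19a occur in Ddx19b.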

How the data were processed

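For 5 libraries the authors deposited a signal, gene counts scaled library by library to a common level. The submitters' processing notes name Trimmomatic 0.36, the aligner STAR 2.7.3a, Subread 1.6.3 with featureCounts, the build mm10, and DESeq2 1.26.0. Annotation and strand setting: not given in the sources used here. A low-input kit was used, per the labels' protocols.

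Dividing each library's values by its smallest step gave whole reads for 100% of them (tolerance 0.1). Genes with 10 or more normalized counts in at least 2 libraries were tested (13813) with limma 3.58.1 (trend, two-sided, Benjamini-Hochberg, threshold 0.05) in R 4.3.3 on log2(value + 1). This scale can understate changes of low genes. Where a single library was at or near 0 it gave a larger change, as for Ddx43, at -2.60 against -0.75 with edgeR. Alternatives used other pseudocounts, filters, scalings and variance models, edgeR 4.0.16, DESeq2 1.42.0, a replicate block and omission of libraries. Lengths, GC content and positions came from GENCODE M21 (GRCm38), matched by symbol for 97.4% of rows. The procedure was tested on simulated data. Figures used matplotlib 3.10.9.

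Members and lists were chosen with earlier results of these data known. Roles were assigned gene by gene and were not measured in these data. Named members were Ddx20, Ddx3x, Ddx3y, the 8 highest and 8 lowest log2 fold changes and the most abundant of each role, and in partner lists the 2 most abundant genes where none was called. Ddx1, Ddx17, Ddx39, Ddx50, Ddx56 and Dhx9 were added after their values were seen.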

Additional observations from a re-analysis of the deposited data

How the results depend on the processing

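Over 20 alternatives, 19 called 0 helicases, and DESeq2 called 3 higher and 1 lower. The GC and length correction, and leaving out both libraries of strongest GC trend (Etv3+/+ replicate 2 and Etv3-/- replicate 3), were chosen after seeing the data. The 165 genes called over all genes became 93 without the limma trend, 1188 with DESeq2, 269 with the replicate block, 340 with the correction (409 with the block as well) and 7 without both libraries. Without 1 library the count was 0 to 80, and the 0 came without Etv3-/- replicate 1, where limma gave 1885 genes at an unadjusted p under 0.05. The median helicase log2 fold change of -0.10 was -0.016 with quantile scaling, -0.011 with the correction (-0.019 with the block) and 0.027 without both libraries. Leaving out 1 library gave -0.14 to 0.094. The cause was not tested. Ddx20 and Etv3 kept their direction and were called in no setting, and 25 of 51 helicases kept their direction in all settings that tested them.

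Some uncalled log2 fold changes changed sign. Ddx25 was at -0.24 with edgeR and -0.26 with DESeq2. Ddx60 was at 0.073 with the replicate block, 0.43 and 0.44 with the correction without and with the block, and 0.29 without both libraries. With the correction Ddx3y was at 0.26, or 0.11 with the block, where Ddx3x was at 0.0082 and Ddx4 at 0.19. Without both libraries Ddx3x was at 0.47, Ddx3y at 0.19, Ddx4 at 1.14 and Dhx36 at 0.22; these libraries hold the highest Etv3+/+ and lowest Etv3-/- values of these 4 genes, so the upward move was fixed by the choice. With 1 library left out, Ddx25 ranged from -1.72 to 3.41, Ddx59 from -0.79 to 0.18, Ddx4 from -1.75 to 0.66, Ddx23 from -2.46 to 0.26 and Ddx60 from -0.54 to 0.073. Deviations from the group mean correlated at -0.034 between the replicates numbered 1 and at 0.039 between those numbered 2. With 2 Etv3+/+ libraries their deviations mirror each other (correlation -1). These values therefore cannot decide whether a shared number marks a pair of libraries. The block leaves Etv3-/- replicate 3 without a partner. Omission of an Etv3+/+ library leaves 1, assumed to vary like the others.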

Other observations

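Among the G-patch cofactors, Pinx1, whose protein acts at telomeres and in the nucleolus, had 235 and 297 normalized counts in Etv3+/+ and 985, 617 and 772 in Etv3-/- (log2 fold change 1.55, limma adjusted p = 0.102). The 5 genes here were singled out after their values were seen. Among partners of eIF4A, Eif4g3 had 911 and 1021 in Etv3+/+ and 1654, 1854 and 2433 in Etv3-/- (log2 fold change 1.02, limma adjusted p = 0.122). Pdcd4, an inhibitor of eIF4A, had 7893 and 5850 against 3842, 4521 and 2360 (log2 fold change -0.98, limma adjusted p = 0.172). In the decay list, Xrn1, the 5′ to 3′ exonuclease, had 1676 and 2587 against 1409, 869 and 821 (log2 fold change -1.05, limma adjusted p = 0.180). In the export list, Thoc1 had 4249 and 5478 against 2235, 3351 and 1249 (log2 fold change -1.19, limma adjusted p = 0.188). None of these 5 genes passed the threshold, and for each the groups did not overlap, as for 36.0% of all genes tested.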
